A study of Rattus norvegicus with 4 samples.

Results

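The immediate early response genes examined here were Fos, Fosb, Fosl1, Jun, Junb, Egr1, Egr2, Ier2, Nr4a1 and Dusp1. These 10 genes were listed by name, as genes that activity and growth factors switch on early. The rule uses no measured value, but the list was drawn up with earlier results of these data known. On the arrays they were represented by 13 probes whose RefSeq transcript accession matched one of them, and all 10 had at least 1 probe, out of 16568 genes with a matched probe. Primary oligodendrocyte precursor cells (OPCs) came from pooled cortices of Sprague-Dawley rats at postnatal day 2, were expanded with PDGF and bFGF and were then moved to differentiating medium with T3 hormone. At that point they received either a siRNA pool against rat Gpr17 (50 nM), called siGPR17, or a pool of non-targeting RNAs, called siNEG, both with Lipofectamine RNAiMAX, and were lysed 48 h later, after 2 days of maturation in vitro. There were 2 samples in each group, each on its own one-color Agilent array. The labels call them independent samples without naming separate litters or cultures, so that p-values measure the spread between these samples, which may be technical.

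Immediate early genes are transcribed within minutes of a stimulus from factors that the cell already holds, and most of their messengers are short lived. FOS and JUN proteins pair through leucine zippers to form the transcription factor AP-1, EGR proteins are zinc finger factors, and Nr4a1 encodes the orphan nuclear receptor Nur77. Dusp1 encodes a phosphatase that switches MAP kinases off again. In OPCs, growth factors such as PDGF drive these genes through the ERK kinases and serum response factor, which binds CArG boxes with its ETS partners, while cAMP drives them through CREB at cAMP response elements (CRE). GPR17 is a receptor that couples to Gi proteins and thereby lowers cAMP. A single measurement 48 h after transfection does not follow the burst after a stimulus.

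Letters to which such factors can bind differ between the promoters of the members, and 5 promoters are printed to show this. A RefSeq promoter of the build GRCr8 was found for 8 of the 10 members, and Fos and Jun were not among them. In the 250 bases before the start of transcription, the CRE core TGACG (searched on both strands) was found in 7 of the 8, against 18.2% of all 33469 promoters. The full palindrome TGACGTCA, which holds the core on each strand, was found in Ier2 and Dusp1, against 1.59% of all promoters. A CArG box, searched as CCWWWWWWGG with W for A or T, was found in Egr1, where there were 2, and in Egr2, where there was 1. It was found in 1.5% of all promoters. Nr4a1 held 4 copies of the CRE core and no exact match to the CArG letters in this window. Of all promoters 0.173% held 4 or more copies of the core. Looser variants of the CArG letters were not searched. None of the 8 held the AP-1 letters TGACTCA, which stood in 4.05% of all promoters. The Nr4a1 promoter is given for the 250 bases before its start, and the others for the bases from 160 to 41 before it. Capitals mark CRE cores, their palindromes and CArG boxes.
Nr4a1, chr7:134259888-134260137, plus strand: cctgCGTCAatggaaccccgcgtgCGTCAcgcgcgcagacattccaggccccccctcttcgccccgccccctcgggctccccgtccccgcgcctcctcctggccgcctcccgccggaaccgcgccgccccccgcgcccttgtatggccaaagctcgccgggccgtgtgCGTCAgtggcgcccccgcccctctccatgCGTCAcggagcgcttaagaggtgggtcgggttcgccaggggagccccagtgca
Egr2, chr20:21054482-21054601, minus strand: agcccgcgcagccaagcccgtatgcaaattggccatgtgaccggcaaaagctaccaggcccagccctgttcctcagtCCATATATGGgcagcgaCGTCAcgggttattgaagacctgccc
Ier2, chr19:40399213-40399332, plus strand: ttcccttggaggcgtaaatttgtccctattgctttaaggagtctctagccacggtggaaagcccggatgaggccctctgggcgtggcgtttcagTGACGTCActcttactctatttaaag
Dusp1, chr10:17184693-17184812, plus strand: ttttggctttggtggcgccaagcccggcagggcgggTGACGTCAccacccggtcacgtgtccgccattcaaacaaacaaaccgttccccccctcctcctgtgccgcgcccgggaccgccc
Junb, chr19:40080966-40081085, plus strand: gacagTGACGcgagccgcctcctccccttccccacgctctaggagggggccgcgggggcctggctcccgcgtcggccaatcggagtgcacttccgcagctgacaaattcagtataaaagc
The letters are a description of these windows and not evidence that a factor was bound there.

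The signal of each probe was taken after background correction by the scanner software and scaled here so that the 75th percentile of every array was equal. Values below are normalized signals in intensity units or differences of their log2, and signals of different probes were not compared. The test, in limma, took probes that 2 or more of the 4 arrays measured well above background, which were 28016 probes, with 11656 named genes among them. Of the members, 9 genes with 11 probes entered the test. All arrays lay on 1 slide, and each group filled a slide column of its own, so treatment and column cannot be told apart. Silenced Gpr17 itself had signals of 1107 and 1113 on the siNEG arrays and of 652 and 639 on the siGPR17 arrays, and its difference was not past the adjusted threshold in limma either (log2 fold change -0.78, adjusted p = 0.209). All 7 matched OPC markers were well above background on all 4 arrays, and so were 8 of 10 matched markers of mature oligodendrocytes, of which Mal was not above it on any array. The same held for all 10 neuronal and all 10 astrocyte markers, so that detection alone does not tell these lineages apart.

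The early response genes did not move 1 way in siGPR17 OPCs. Egr1 was higher in siGPR17 OPCs, Nr4a1 and Junb were lower, and the other 6 tested members had arrays that overlapped between the groups on their brightest probe. None of these differences was past the adjusted threshold in limma. The median log2 fold change over the 9 tested members was 0.021, beside 0.0099 over all tested genes. Past a fold of 1.5 and an adjusted p under 0.07, the thresholds of the study, were 0 of the 9 members in limma, against 0% of all genes tested (0 of 11656) and 0.00357% of all probes (1 of 28016). The unpaired test that the study's methods name for comparisons of groups and limma after normexp background correction also gave 0 of 9, with 1 member, Nr4a1, at an unadjusted p under 0.05 in that unpaired test, and limma with robust estimation and a trend of variance with signal gave 1, which was Egr1. Over all tested genes 0.961% passed with normexp and 1.58% with trend and robust estimation. With an unadjusted p under 0.05 in limma there were 3 of 9 members, 1 higher and 2 lower, where 16.2% of all tested genes met that criterion. The groups did not overlap for the same 3 members (1 higher, 2 lower), beside 53.4% of all tested genes (28.1% higher and 25.3% lower). Of the 9 tested members 5 had a positive difference of any size, as 52% of all tested genes did.

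**Figure D1:**
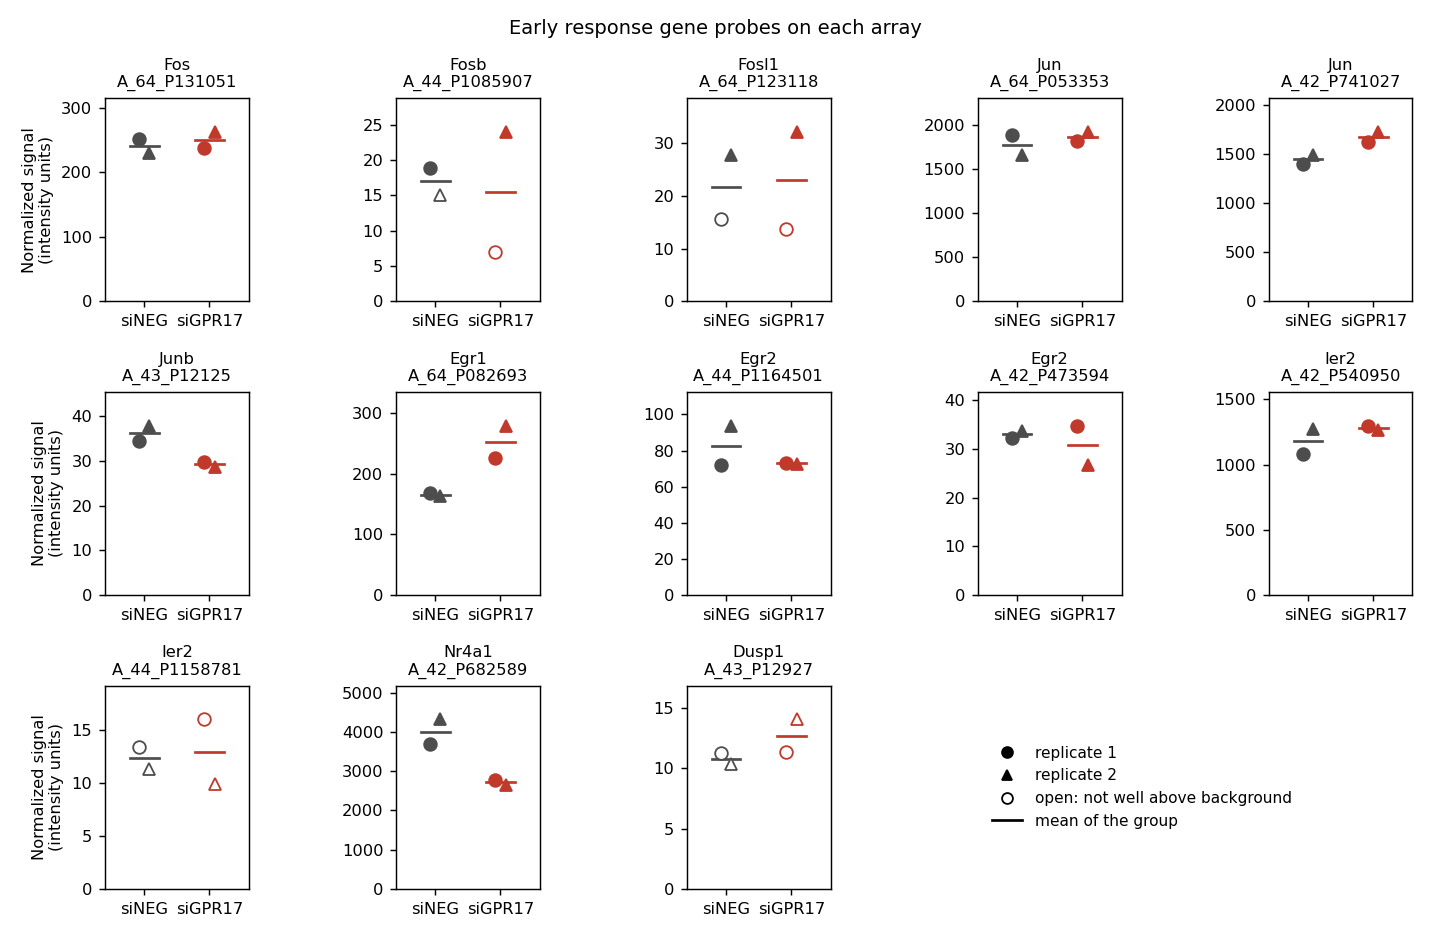
Normalized signal (intensity units, axis from 0) of all 13 probes of the 10 early response genes on the 2 siNEG and 2 siGPR17 arrays, with 1 panel and 1 scale per probe. Circles are replicate 1, triangles replicate 2, bars the group means, and open symbols signals not well above background. Among the tested probes the groups are apart for Egr1, Nr4a1, Junb and the dimmer probe of Jun.

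Egr1 had the largest positive difference among the members. This zinc finger factor, also known as Krox-24 or NGFI-A, is a direct target of ERK and serum response factor. Its signal was 169 and 163 on the siNEG arrays and 226 and 279 on the siGPR17 arrays. The groups were apart with siGPR17 higher, and the siGPR17 arrays differed more from each other than the siNEG arrays did. The group means were 165.8 ± 3.91 (SD, n = 2) and 252.4 ± 38.0 (SD, n = 2), and the fold between the means of their log2 values was 1.51. In limma the log2 fold change was 0.60 (standard error 0.14, 95% interval 0.22 to 0.97), with an unadjusted p of 0.011 and an adjusted p of 0.217. A fold of 1.5 or more was reached by Egr1 alone among the tested members, against 5.08% of all tested genes. With trend and robust estimation its adjusted p was 0.0687, just inside the threshold, and over all alternatives its adjusted p ranged up to 0.668. The difference was positive under each of them, from 0.44 without siGPR17 replicate 2 to 0.75 without siGPR17 replicate 1.

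Egr2, also known as Krox-20, is the factor that drives myelination in Schwann cells, and its promoter has a CArG box at 83 to 74 bases and a CRE core at 66 to 62 bases before the start, the same places as in Egr1. Its brighter probe, A_44_P1164501, had signals of 71.7 and 93.8 on the siNEG arrays and of 73.0 and 72.8 on the siGPR17 arrays. The siGPR17 arrays were almost equal and lay between the siNEG arrays. The log2 fold change was -0.17, with a 95% interval from -0.60 to 0.26 (adjusted p = 0.615 from limma). The dimmer probe, A_42_P473594, had signals of 32.3 and 33.7 in siNEG and of 34.8 and 26.7 in siGPR17 OPCs, which also overlapped (log2 fold change -0.11, adjusted p = 0.743 from limma). Both probes changed sign with normexp, to 0.047 and 0.054, so that no direction is given for Egr2.

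Nr4a1 had the largest negative difference among the members. Its signal was 3693 and 4317.5 on the siNEG arrays, and it was 2772 and 2651 on the siGPR17 arrays. The siNEG arrays differed by 0.23 on the log2 scale and the siGPR17 arrays by 0.064, and the groups were apart. Group means were 4005 ± 441 (SD, n = 2) and 2711 ± 85.5 (SD, n = 2), and between the means of log2 values siGPR17 was 1.47-fold lower, inside the fold of 1.5. The log2 fold change was -0.56 (standard error 0.12, 95% interval -0.88 to -0.24), with an unadjusted p of 0.00798 and an adjusted p of 0.213 in limma. With trend and robust estimation the adjusted p was 0.0385 and with normexp 0.0479, again without the fold of 1.5. Over all alternatives the change stayed negative, between -0.67 without siNEG replicate 1 and -0.43 with scaling on spike-in controls, and the adjusted p ranged up to 0.672.

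**Figure D2:**
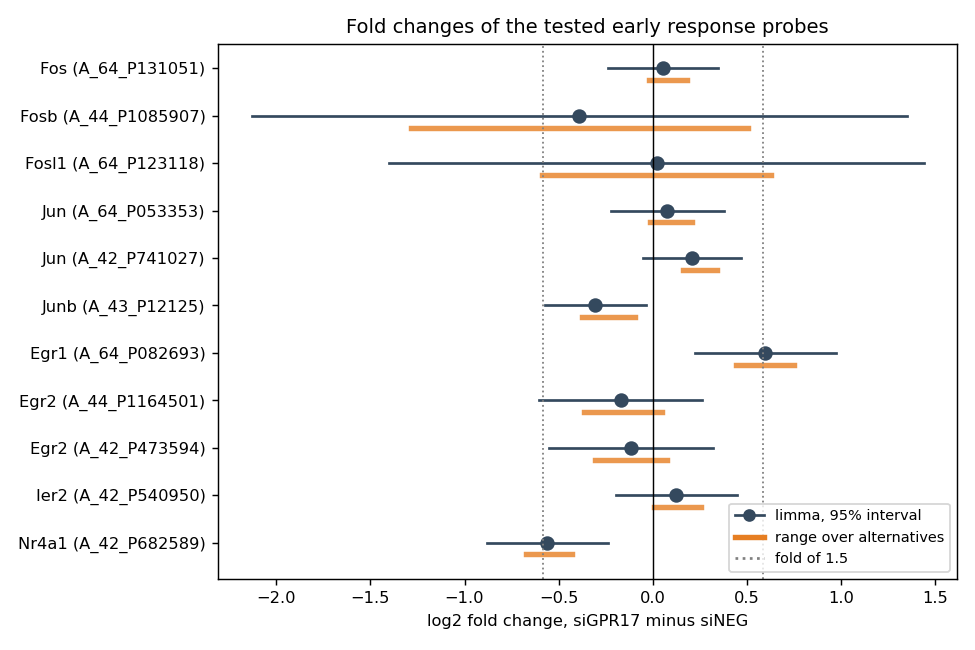
Log2 fold change (siGPR17 minus siNEG) of the 11 tested probes with its 95% interval from limma (points and dark lines), the range over the alternative settings (orange) and the fold of 1.5 (dotted). The interval leaves out 0 for Egr1, Nr4a1 and Junb, and the widest intervals belong to Fosb and Fosl1.

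Neither of the JUN members of AP-1 passed the thresholds. The arrays of Junb were apart, with siGPR17 lower, and those of Jun were apart on 1 of its probes, with siGPR17 higher. JUNB is a less active AP-1 partner that can oppose JUN. The signal of Junb was 34.4 and 37.9 in siNEG and 29.8 and 28.7 in siGPR17 OPCs. These were low, well above background on all 4 arrays and apart between the groups. Its log2 fold change was -0.30 (standard error 0.099, 95% interval -0.57 to -0.033), with an unadjusted p of 0.0355 and an adjusted p of 0.275 in limma. It was -0.095 with normexp, and with trend and robust estimation its unadjusted p was 0.244, while its sign was negative under every alternative run. Jun, which encodes c-Jun, was measured by A_64_P053353 and A_42_P741027. The brighter one had signals of 1887 and 1661 in siNEG and of 1814 and 1924 in siGPR17 OPCs. These overlapped, and the log2 fold change was 0.078 (95% interval -0.22 to 0.38, adjusted p = 0.746 from limma). The dimmer one had signals of 1402 and 1496 against 1626 and 1727, which did not overlap. Its log2 fold change was 0.21 (95% interval -0.049 to 0.47, adjusted p = 0.356 from limma), so that the probes differed in whether the groups were apart and shared the direction.

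The FOS members, which need a JUN partner to bind DNA, gave no difference beyond their spread. Fos had signals of 251 and 231 on the siNEG arrays and of 238 and 263 on the siGPR17 arrays, well above background on all 4. The arrays of the groups were interleaved. The log2 fold change was 0.054 with a 95% interval from -0.24 to 0.35 (adjusted p = 0.824 from limma), an interval that leaves out a fold of 1.5 in either direction. Fosb and Fosl1, in contrast, were at the limit of detection, each well above background on 1 array of each group. Fosb had signals of 18.9 and 15.1 in siNEG and of 6.94 and 24.0 in siGPR17 OPCs, where replicates differed by 1.79 on the log2 scale. For Fosl1, the gene of FRA-1, signals were 15.6 and 27.7 in siNEG and 13.8 and 32.1 in siGPR17 OPCs. In Fosl1 replicate 2 was the brighter array of both groups. The 95% intervals ran from -2.13 to 1.35 for Fosb and from -1.40 to 1.44 for Fosl1, so that changes well beyond a fold of 1.5 could not have been seen in either.

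Ier2, a small nuclear protein of the growth factor response, had signals of 1083 and 1274 in siNEG and of 1299 and 1264 in siGPR17 OPCs on its brighter probe. The second siNEG array lay between the siGPR17 arrays, and the log2 fold change was 0.13 (95% interval -0.20 to 0.45, adjusted p = 0.618 from limma). A dimmer probe, A_44_P1158781, was well above background on 0 of the 4 arrays, with signals from 9.93 to 16.03, and was not tested. Dusp1 was the member that could not be tested. Its single matched probe had signals of 11.3 and 10.3 in siNEG and of 11.3 and 14.0 in siGPR17 OPCs, and was not well above background on any of the 4 arrays. No fold is given for Dusp1, and a low signal of 1 probe does not show that its transcript was missing.

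The closest relatives of the members, taken by gene family, also lay on both sides. Egr4 had signals of 25.9 and 22.04 in siNEG and of 9.22 and 11.3 in siGPR17 OPCs, and was not well above background on either siGPR17 array. Its fitted difference depended on how background was corrected, at -1.23 on the log2 scale in limma (adjusted p = 0.209) and -0.14 with normexp, so that no fold is given for Egr4. Egr3 was dim and overlapped between the groups (log2 fold change 0.12, standard error 0.19). Of the other NR4A receptors, Nr4a2, the gene of NURR1, had signals of 641.5 and 644 in siNEG and of 562 and 468 in siGPR17 OPCs. Its groups were apart on this probe, by -0.33 on the log2 scale (standard error 0.12 and adjusted p = 0.310 in limma), and overlapped on a dimmer probe that gave -0.11. Nr4a3 overlapped (log2 fold change -0.069, standard error 0.19). In the AP-1 families, the brightest probe of Fosl2 overlapped (-0.034) and that of Jund was higher on both siGPR17 arrays by 0.24 (adjusted p = 0.398 from limma). Among the other IER genes, Ier5 was higher by 0.35 on each of its probes (unadjusted p of 0.0376 and 0.0152 in limma, adjusted p of 0.279 and 0.232), and Ier3 differed by 0.031 (standard error 0.086).

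**Figure D3:**
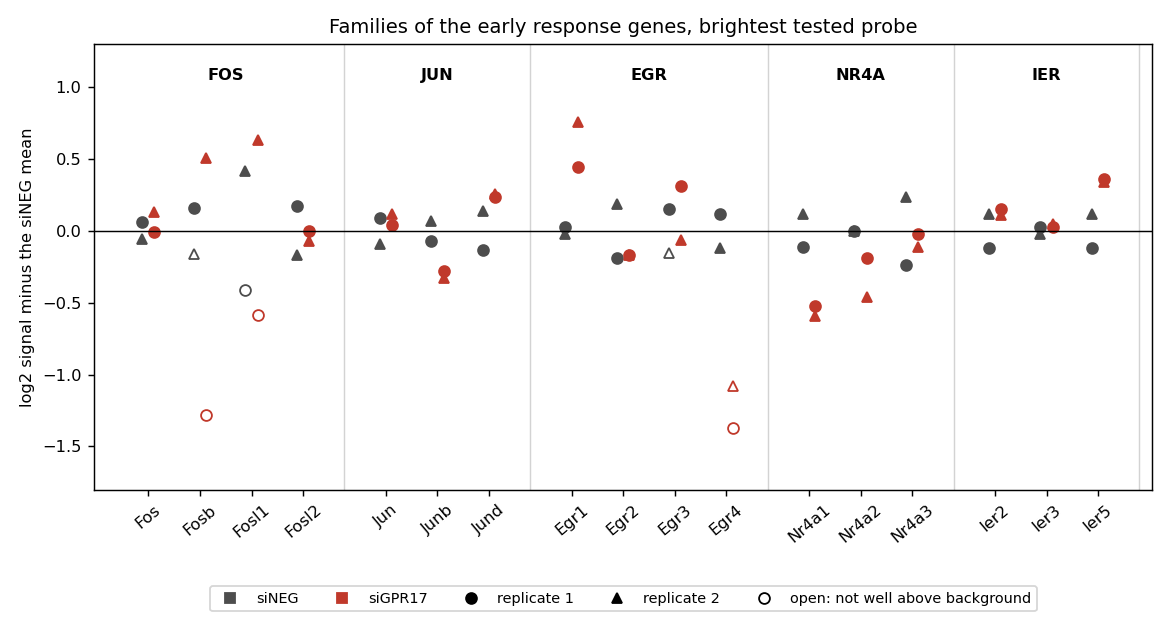
Log2 signal of the brightest tested probe of each gene minus its mean on the siNEG arrays, for the FOS, JUN, EGR, NR4A and IER genes, with the 2 arrays of each group (siNEG grey, siGPR17 red) and open symbols for signals not well above background. Egr1 lies above 0 in siGPR17 OPCs, and Nr4a1 and Nr4a2 lie below it. Both siGPR17 symbols of Egr4 are open, so its place below 0 is not read as a direction.

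Of 36 other early genes, 31 were tested, 19 higher and 12 lower after silencing. Their median difference was 0.10 on the log2 scale. Fitted values ran from -1.23 for Egr4 to 0.74 for Tob1, both on dim probes that were not well above background on every array. In limma 0 of the 31 passed the thresholds, and 9 had an unadjusted p under 0.05, 6 higher and 3 lower, beside 7.43% and 8.73% of all tested genes. With normexp and with trend and robust estimation 0 passed as well. The 3 lower genes include Egr4, which entered the test only through its siNEG arrays, so that its p is not read as a difference. Btg2, an antiproliferative early gene, had signals of 135 and 170 in siNEG and of 200.5 and 214 in siGPR17 OPCs (log2 fold change 0.45, unadjusted p = 0.0361 from limma). Plk3, a polo-like kinase, was higher by 0.44 and Arc, a gene of neuronal activity, by 0.36, both with the groups apart. On the lower side, Zfp36l1, whose product promotes decay of short-lived messengers, had signals of 1790.4 and 1838 in siNEG and of 1315 and 1281 in siGPR17 OPCs. The log2 fold change of Zfp36l1 was -0.48 (standard error 0.086), with an adjusted p of 0.209 in limma and of 0.0335 with trend and robust estimation, inside a fold of 1.5. For Ccn1, a matricellular protein induced by growth factors, it was -0.33, and -0.12 with normexp. Ccn2, Npas4, Ptgs2 and Zfp36 were not well above background on any array.

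The signaling genes upstream and the feedback genes of the ERK cascade were also without a common direction. Of 11 tested feedback genes, 3 were higher and 8 lower (median -0.065 on the log2 scale), and 0 passed the thresholds in limma, in limma with trend and robust estimation or with normexp. Spred1, an inhibitor of RAS signaling, was higher by 0.33 (unadjusted p = 0.0287 from limma). The ETS factor Etv1 had a log2 fold change of -0.43 (unadjusted p = 0.00928 from limma). That of the phosphatase Dusp4, on a dim probe, was -0.44 (unadjusted p = 0.0499 from limma) and -0.055 with normexp. Dusp6, a phosphatase specific for ERK, differed by -0.059 (standard error 0.091). Among 23 tested kinases and nuclear effectors, 12 were higher and 11 lower (median 0.023). In limma 2, both lower, had an unadjusted p under 0.05, beside 16.2% of all tested genes and 8.73% on the lower side. Elk4, an ETS partner of serum response factor, was among them, with a log2 fold change of -0.35.

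Dimer partners and co-repressors showed both directions. Of 13 tested, 4 had an unadjusted p under 0.05 in limma, 3 higher and 1 lower, beside 7.43% and 8.73% of all tested genes. In limma 0 of the 13 passed the thresholds, and their median was 0.022 on the log2 scale. Nfe2l2, the gene of the antioxidant factor NRF2, had signals of 154 and 125 in siNEG and of 211 and 217 in siGPR17 OPCs. It was higher by 0.63 on the log2 scale (standard error 0.14 and adjusted p = 0.216 in limma). With trend and robust estimation it was the 1 gene of this list that passed (adjusted p = 0.0682), beside 1.58% of all tested genes. Rxra, a nuclear receptor that pairs with NR4A1, was higher by 0.49, and Mafg by 0.42. Nab1, a co-repressor of EGR factors, was lower on both siGPR17 arrays on both tested probes (log2 fold changes -0.21 and -0.42, unadjusted p of 0.0684 and 0.0141 in limma), and Nab2, itself an EGR target, overlapped (-0.11, standard error 0.14).

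Of 14 matched genes known as targets of AP-1 or EGR factors, 7 were tested, with a median log2 fold change of -0.021, and 6, Mmp13, Mmp3, Mmp9, Plau, Spp1 and Tgfb1, were not well above background on any array. Hmox1, the heme oxygenase of the stress response, had signals of 359 and 306 in siNEG and of 459 and 513 in siGPR17 OPCs, higher by 0.55 on the log2 scale (unadjusted p = 0.0119 from limma). Pdgfa, a mitogen of OPCs, was higher by 0.27. The adhesion genes Icam1 and Cd44 were lower, with log2 fold changes of -0.77 and -0.33, and that of Icam1 was -0.30 with normexp. In limma, with normexp and with trend and robust estimation 0 of the 7 passed the thresholds. In limma 4 of the 7 had an unadjusted p under 0.05, beside 16.2% of all tested genes. Of 10 tested heat shock genes, which rise with handling of cells, 0 met that criterion. Their median was 0.057 on the log2 scale, from -0.15 for Dnaja1 to 0.23 for Hspe1.

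**Figure D4:**
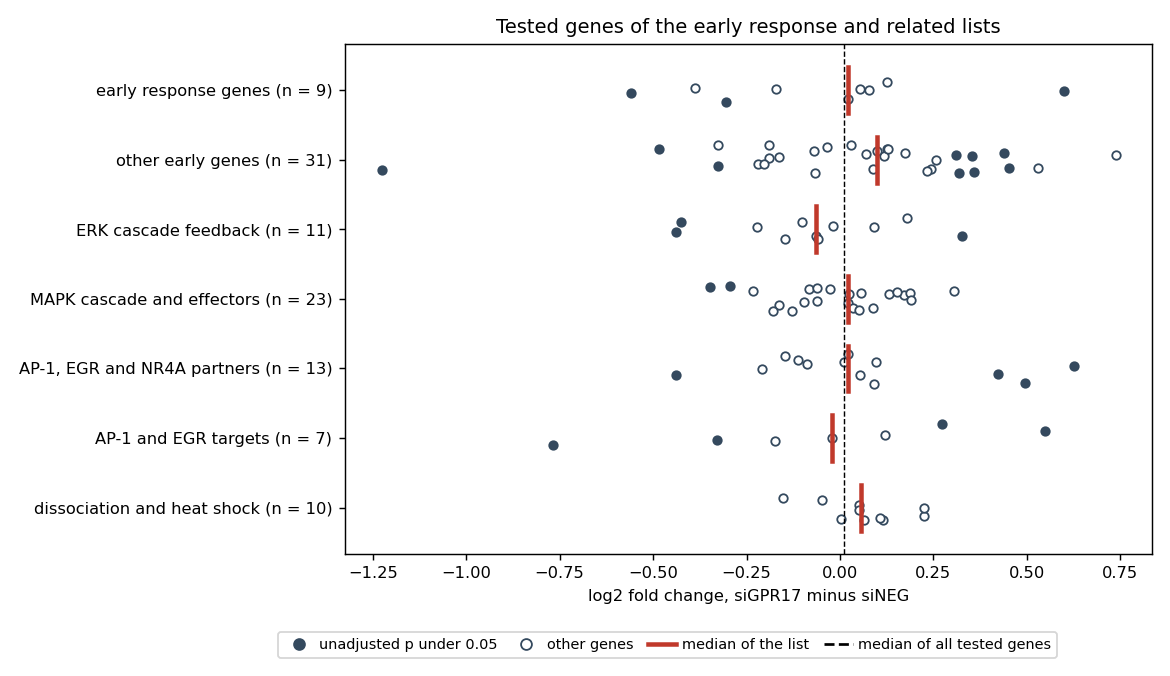
Log2 fold change (siGPR17 minus siNEG) of each tested gene of the early response genes and of the related lists, filled where the unadjusted limma p was under 0.05, with the median of each list (red) and of all tested genes (dashed). Each list spans 0, and the medians lie between -0.065 and 0.10.

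Early genes are also strongly expressed by other cells that OPC cultures can hold, so the summed signal of their markers is given beside these results. Summed over all 10 matched neuronal markers, all above background on every array, it was 33850.4 to 35044 in siNEG and 29288.5 to 30324 in siGPR17 OPCs. All 10 were lower there, 4 with an unadjusted p under 0.05 in limma, where 8.73% of all tested genes were lower at that p. Syt1 at -0.0059 and Rbfox3 at -0.11 on the log2 scale changed sign among the alternatives, reaching 0.12 and 0.024. For 9 endothelial markers the sum was 1135 to 1236 in siNEG and 1608 to 1711 in siGPR17 OPCs, 4 of 5 tested ones being higher, with Cldn5, Emcn and Pecam1 not above background on any array. In microglial markers, the sum over 14 was 2789 to 4118 in siNEG and 2821 to 3263 in siGPR17 OPCs, with C1qc, Csf1r and Ptprc not above background. Of the 11 tested microglial markers 9 were lower, 2 of them with an unadjusted p under 0.05 in limma, beside 8.73% of all tested genes. Those were Aif1 at -0.56 and P2ry12 at -0.32 on the log2 scale. Over all alternatives they ran from -0.69 to -0.11 for Aif1 and from -0.38 to -0.19 for P2ry12. The median of the 11 was -0.15, and 0.074 without siNEG replicate 1, the array with the sum of 4118. No direction is therefore given for the microglial markers. Summed over 7 OPC markers the signal was 235755 to 276951 in siNEG and 224151 to 224612 in siGPR17 OPCs, where all 7 were lower. Of these, 2 had an unadjusted p under 0.05 in limma, beside 8.73% of all tested genes. Sox10 at -0.016 and Olig1 at -0.10 changed sign among the alternatives, reaching 0.11 and 0.029. Over 10 markers of mature oligodendrocytes the sums overlapped, at 375757 to 434809 in siNEG and 428424 to 444912 in siGPR17 OPCs. The neuronal and OPC sums were lower, as Nr4a1 and Junb were. The endothelial sum and that of fibroblast and mural markers were higher, as Egr1 was. Whether any of these go together was not tested. Astrocyte markers, all 10 above background, summed to 118964 to 133824 in siNEG and 122522 to 123840.0 in siGPR17 OPCs, while single markers differed in both directions. Of the 10, 4 had an unadjusted p under 0.05 in limma, beside 16.2% of all tested genes. Their log2 fold changes were -1.35 for Aqp4, -0.61 for Gfap, -0.37 for Slc1a3 and 0.50 for S100b. With trend and robust estimation 2 of the 10 passed the thresholds, beside 1.58% of all tested genes. Of 10 fibroblast and mural markers 6 were not above background. Their sum was 367 to 488 in siNEG and 493 to 517 in siGPR17 OPCs. The 3 tested ones were higher, 0 of them with an unadjusted p under 0.05 in limma. In whole cultures fewer cells of a type and less RNA per cell cannot be told apart, and the part of these cells in the results was not tested.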

How the data were processed

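The authors hybridized 1 sample per array and deposited, per the file headers, the spot intensity that Agilent Feature Extraction 10.7.3.1 gave, corrected for background and spatial trends and not normalized between arrays. Raw spot and background median intensities in the same files were used for normexp only, since no spot mean was among the columns. Control spots and outlier spots were left out, log2 values of a probe's spots were averaged and each array's 75th percentile was subtracted. Signals printed are these values times 1 common factor. Tests used lmFit and eBayes of limma 3.58.1 (R 4.3.3), two-sided, with Benjamini-Hochberg adjustment over 28016 probes. The brightest tested probe stood for a gene. The study's methods name no test for the arrays, and their general unpaired t-test was run as the methods' t-test. An exact permutation test of 2 against 2 arrays cannot give a two-sided p under 0.333. The number of arrays limits the precision.

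Probes were named through transcript accessions matched without versions to a RefSeq table (GRCr8), which gave 21109 of 45598 probes a symbol. The array design names another build, so probe coordinates are not given. Named genes were all members, and up to 3 genes in each direction per related list with groups apart and an unadjusted p under 0.05. Some genes that this rule names are not reported here. Family relatives were added later. Members and lists were chosen with earlier results of these data known. The code was tested on simulated data. Alternatives were normexp (offset 50), quantile normalization, 2 other scalings, 2 other filters, trend and robust eBayes, the methods' t-test, the replicate block, the mean of a gene's probes and leaving out each array.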

Additional observations from a re-analysis of the deposited data

How the results depend on the processing

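The signs of Egr1, Nr4a1, Junb, Ier2 and the dimmer Jun probe held under every alternative run. Of all tested probes 1 was past the thresholds, against 420 with trend and robust estimation, 242 with normexp, and 0 with spike-in scaling, no filter, the filter on all 4 arrays, the methods' t-test, the replicate block or any array left out (range 0 to 0); the cause was not tested. Trend and robust estimation put 1 member gene and 1 member probe past them, Egr1 (log2 fold change 0.60, adjusted p = 0.0687), beside 1.58% of all tested genes. Members with an unadjusted p under 0.05 numbered 3 (16.2% of all tested genes), but 1 (Nr4a1) in the methods' t-test (14.4% of all) and 1 to 4 with an array left out: 4 without siNEG replicate 1 (22.9% of all), 1 without siNEG replicate 2 (Nr4a1; 16.9%), 2 without siGPR17 replicate 1 (6.58%) and 1 without siGPR17 replicate 2 (Fosb; 6.07%). The median of the members was 0.15 with spike-in scaling, which moved the median of all genes to 0.14 and the share of higher among genes with an unadjusted p under 0.05 from 46% to 79.8%. It ranged from -0.23 (without siNEG replicate 1) to 0.12 (without siGPR17 replicate 1) with an array left out, and was -0.17 without siGPR17 replicate 2. Signs changed for the other members, whose log2 fold changes with an array left out ran from -0.31 to 0.078 for Egr2 (A_42_P473594), -0.36 to 0.023 for Egr2 (A_44_P1164501), -1.28 to 0.51 for Fosb, -0.59 to 0.63 for Fosl1, -0.018 to 0.13 for Fos and -0.014 to 0.17 for the brighter Jun probe. The sign also changed with normexp for Egr2 (0.054 and 0.047) and Fosb (0.058), and with spike-in scaling for A_42_P473594 (0.015). With the replicate block, 0 probes passed and 2 members, Egr1 and Nr4a1, had an unadjusted p under 0.05, beside 11% of all tested genes. Same-numbered arrays, which also share a row of the slide, did not deviate together (r = -0.0652 across tested probes, which are not independent replicates). The filter on all 4 arrays left no value for Fosb and Fosl1, and the mean over a gene's probes was run for the median only. A sample left alone in its group was assumed to vary like the other group.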

Other observations

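Some early genes that the naming rule left out were picked after their values had been seen. Crem, whose short isoforms repress cAMP response elements, had signals of 533 and 535 in siNEG and of 679.8 and 644 in siGPR17 OPCs on its brightest probe, higher by 0.31 on the log2 scale (unadjusted p = 0.0231 and adjusted p = 0.249 in limma). On 3 further tested probes of Crem the differences were 0.36, 0.44 and 0.12, and which isoforms they read is not given in the sources used here. Maff, a small MAF partner of AP-1, had signals of 58.5 and 56.5 in siNEG and of 73.1 and 70.4 in siGPR17 OPCs (log2 fold change 0.32, adjusted p = 0.244 from limma).

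The widest spreads among the early genes were in dim probes. Tob1, an antiproliferative gene related to Btg2, had signals of 20.7 and 9.87 in siNEG and of 24.98 and 22.8 in siGPR17 OPCs, so that its log2 fold change of 0.74 had a 95% interval from -0.31 to 1.79. In Trib1, a pseudokinase gene, signals were 25.4 and 21.6 in siNEG and 26.3 and 43.6 in siGPR17 OPCs, and the interval ran from -0.23 to 1.29.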
